A study of Brassica napus with 27 samples.

Results

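The response of winter oilseed rape leaves (Brassica napus cultivar Visby) to the auxinic herbicide picloram (Pic) was followed from 48 to 96 h after treatment, and the genes whose response returned toward the control were separated from those whose response grew. The measure was a difference of differences, Pic minus control at 96 h less Pic minus control at 48 h, on the log2(FPKM + 1) scale, where FPKM is fragments per kilobase of gene and sequencing depth, as deposited. It rested on 12 of the 27 mRNA libraries of the series, 3 in each of the 4 groups Pic 96 h, control 96 h, Pic 48 h and control 48 h. The test covered 46395 of 104573 genes, those that reached 1 FPKM in 3 or more of the 27 libraries. Pic leaves received 2.4 µg picloram, spotted in drops on 1 leaf of young plants grown at 15 °C. Control leaves are labelled as untreated, whereas the treatment protocol gives them the solvent with its wetting agent. The dose is given per leaf in one source and per plant in another. Other libraries of the series came from leaves harvested at 2 h and from leaves treated with 0.5 µg halauxifen (Hal), a second auxinic herbicide. All plants were of 1 cultivar and the replicates came from different plant material, so that times and treatments are compared between plants.

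Auxin is a plant growth hormone that acts by having Aux/IAA repressor proteins degraded, which frees auxin response factors to activate their target genes. Among the first targets are the Aux/IAA genes themselves and the small auxin-up RNA (SAUR) genes, so that the response contains its own brake. Picloram is a synthetic auxin, and at herbicidal doses such compounds deform leaves and stems of broad-leaved plants. The questions asked of these data were which parts of the 48 h response were still present at 96 h, which had returned, and whether the Pic leaves or the control leaves had moved.

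The 12 libraries held 15565637 to 18384758 gene-assigned reads, worked back from the FPKM values, and reads from 56640 to 59716 genes. The divisor that turned reads into FPKM was 0.751 to 1.09 times the library total, lowest in the control libraries of 96 h and highest in the Pic libraries of 96 h. Leaf markers (chlorophyll a-b binding proteins and the small chain of Rubisco) summed to 115710.0 to 117542 FPKM in Pic libraries and 168246 to 189996 FPKM in control libraries at 96 h, and to 154402 to 168452 FPKM in Pic libraries and 170687 to 198110.0 FPKM in control libraries at 48 h. Of 16 seed storage genes, 11 had no read in any of the 12 libraries, and the 16 together stayed at or under 1.29 FPKM. The 5 pollen and flower genes together reached at most 2.85 FPKM. The labelled tissue therefore carried its markers in every library. In bulk leaf RNA, fewer cells of a type and less RNA per cell cannot be told apart.

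The Pic response differed between the 2 times in 13047 of 46395 tested genes (limma, Benjamini-Hochberg adjusted p under 0.05 over all tested genes, two-sided), which is 28.1%. The change was positive in 5822 genes (12.5%) and negative in 7225 genes (15.6%), and 4602 genes changed by at least 1 on the log2 scale. The median over all tested genes was -0.02. When libraries were scaled to equal read totals instead of the deposited divisor, the median change was 0.14, a shift of 0.16, and 8441 changes were positive and 4304 negative. Positive changes thus made up 44.6% of calls with the deposited scaling and 66.2% with equal totals, so directions of small changes are read relative to the median of each scaling. Pic leaves differed from control leaves in 22539 genes (48.6%) at 96 h and in 14771 genes (31.8%) at 48 h.

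A gene was counted as returning when it differed from the control at 48 h and its change ran against that difference. This held for 4992 genes, or 33.8% of those called at 48 h. Of these, 2651 no longer passed the test at 96 h (back), 578 still passed it in the 48 h direction (partial), and 1763 passed it in the other direction (reversed). The change ran with the 96 h difference in 7604 genes. Of these, 1388 were already called in that direction at 48 h (growing) and 6216 were not called at 48 h (emerging). A further 451 changes passed the test in genes outside these classes. With the deposited scaling the share that returned was 34.5% of the 6460 genes upregulated at 48 h and 33.2% of the 8311 genes downregulated then. With equal totals, which called 10455 genes upregulated and 5066 downregulated at 48 h, these shares were 20.2% of the upregulated and 49.7% of the downregulated genes, so the class of a gene with a small difference depends on the scaling.

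The share that grew or emerged was higher among downregulated genes. Of 12262 genes downregulated at 96 h, 38.8% had grown or emerged since 48 h, against 27.7% of 10277 upregulated genes. With equal totals these shares were 35.1% of 5854 downregulated and 30.2% of 19032 upregulated genes. With the deposited scaling the share over both directions was 33.7%, next to the 33.8% of 48 h genes that returned. The 48 h libraries enter both the choice of returning genes and their change, as the 96 h libraries do for growing and emerging genes. Error in those libraries alone therefore gives some return and some growth, and these shares are descriptions. Genes upregulated at 48 h had a median Pic minus control difference of 0.32 at 96 h and 0.63 at 48 h, and 2974 of them were still upregulated at 96 h. Genes downregulated at 48 h had medians of -0.45 at 96 h and -0.64 at 48 h, and 4687 of them were still downregulated.

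**Figure D1:**
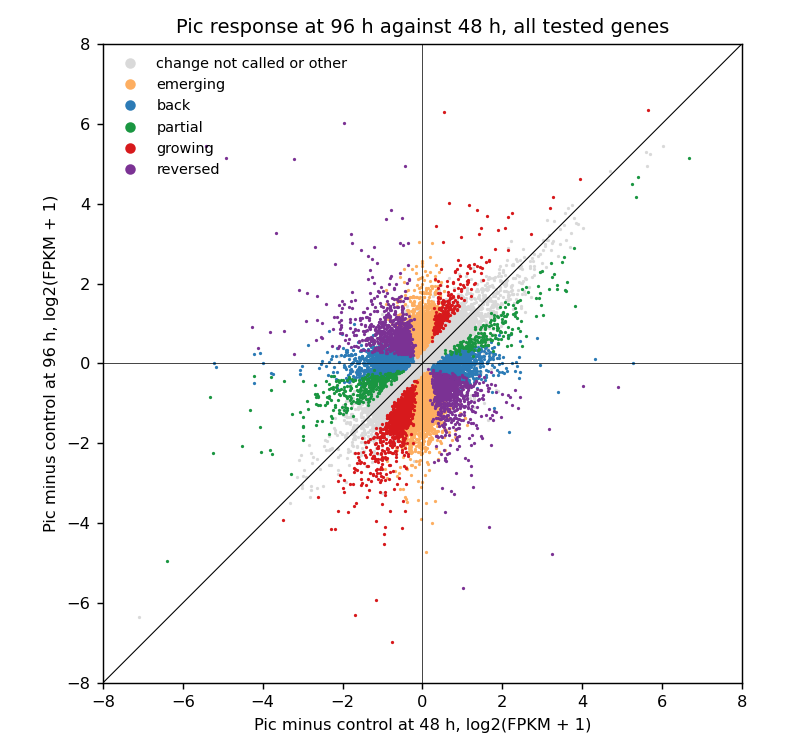
Pic minus control at 96 h (vertical) against 48 h (horizontal), both as log2(FPKM + 1) differences, 1 point for each of 46395 tested genes, coloured by class. Points on the diagonal kept their response; the 2651 genes marked back lie along the horizontal zero line, the 1763 reversed genes in the upper left and lower right.

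With the deposited scaling, the Pic leaves alone had moved more often than the control leaves alone among returning genes. Among growing or emerging genes the order was the other way round. These counts were not made with equal totals, so the order may depend on the scaling. Among the 4992 returning genes, only the Pic leaves passed the test between 48 and 96 h in the direction of the change in 2183 (43.7%), only the control leaves passed it in 1271 (25.5%), and both did in 1246 (25%). Among the 7604 growing or emerging genes these counts were 1800 (23.7%), 4014 (52.8%) and 1016 (13.4%). Genes in the partial class that were upregulated at 48 h had a median difference of 0.67 at 96 h and 1.57 at 48 h, with the Pic leaves moving by a median of -0.66 and the control leaves by 0.13. Growing downregulated genes had medians of -1.29 at 96 h and -0.52 at 48 h, with the Pic leaves moving by -0.17 and the control leaves by 0.56. Over all tested genes, 11230 (24.2%) differed between the times in Pic leaves and 13831 (29.8%) in control leaves. With equal totals these counts were 11794 in Pic leaves and 12149 in control leaves.

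**Figure D2:**
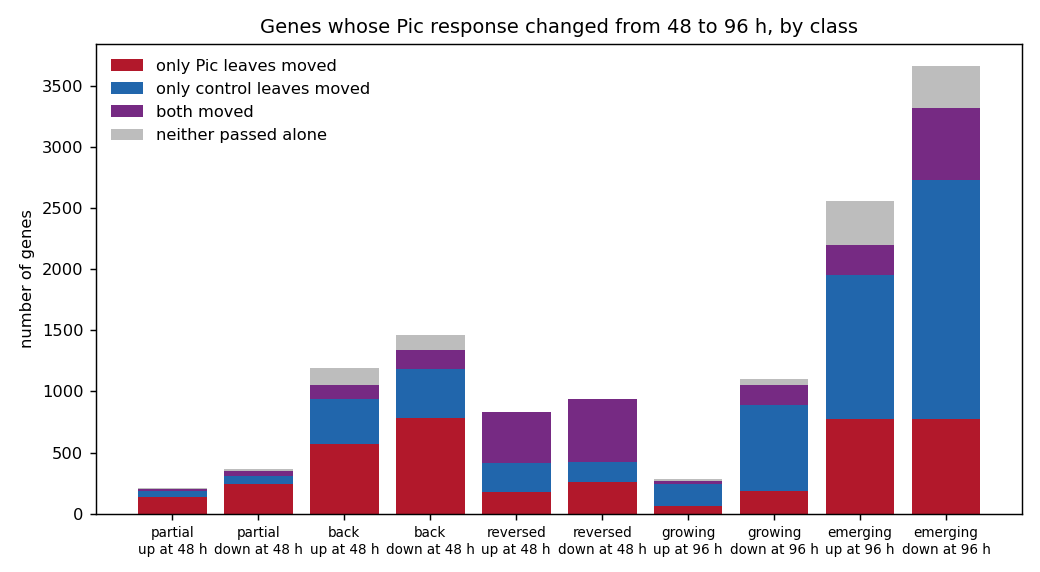
Number of genes in each class and direction (vertical axis, genes), divided by whether only Pic leaves, only control leaves, both or neither passed the test between 48 and 96 h in the direction of the change. With the deposited scaling, the emerging downregulated class is the tallest, with 3657 genes, of which 1949 moved in control leaves only.

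The genes named here by rank had a description in the files, a mean of at least 5 FPKM in 1 of the 4 groups and no overlap of the 3 Pic with the 3 control libraries at the time that defined their class. Among these genes, those upregulated at 48 h and not called on the other side of the control at 96 h are given first. The largest change was that of BnaA03g50070D, a xyloglucan endotransglucosylase/hydrolase on chromosome A03 (scaffold LK032443, 30295 to 31637, minus strand). Enzymes of this kind cut and rejoin wall xyloglucan. At 96 h, BnaA03g50070D had 5.73, 8.03 and 4.9 FPKM in the Pic libraries, against 7.4, 7.03 and 7.38 FPKM in the control libraries, and at 48 h 16.7, 18 and 18.6 FPKM in the Pic libraries, against 2.76, 2.33 and 2.19 FPKM in the control libraries. The 48 h Pic libraries stood well above every other group, and at 96 h the groups overlapped. The response changed by -2.67 ± 0.19 (log2, SE), with adjusted p = 2.3e-10; Pic leaves fell by 1.40 and control leaves rose by 1.27 over the interval, both past the test.

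BnaA07g38610D, a pectate lyase, an enzyme that cleaves wall pectin, showed the same outline. At 96 h, BnaA07g38610D had 2.47, 4.02 and 4.96 FPKM in the Pic libraries, against 2.87, 2.83 and 3.11 FPKM in the control libraries, and at 48 h 9.99, 10.6 and 9.58 FPKM in the Pic libraries, against 2.8, 2.57 and 1.56 FPKM in the control libraries. Its change of -1.50 ± 0.24 (adjusted p = 4.2e-05) came from the Pic leaves, which fell by 1.23, while the control leaves moved by 0.27 (adjusted p = 0.24). BnaC01g27750D encodes a carbonic anhydrase, which interconverts carbon dioxide and bicarbonate. At 96 h, BnaC01g27750D had 1.97, 2.12 and 2.11 FPKM in the Pic libraries, against 2.98, 2.42 and 3.11 FPKM in the control libraries, and at 48 h 6.17, 6.04 and 5.24 FPKM in the Pic libraries, against 1.96, 2.05 and 1.62 FPKM in the control libraries. Its Pic libraries were highest at 48 h and, at 96 h, all 3 lay under the 3 control libraries, a difference of -0.32 that missed the threshold (adjusted p = 0.069). The change was -1.57 ± 0.20 (adjusted p = 2.7e-06). BnaA05g34950D, the H protein of the glycine cleavage system of photorespiration, changed by -1.64 ± 0.24 (adjusted p = 1.7e-05), and its control leaves rose by 0.96 while its Pic leaves fell by 0.67. At 96 h, BnaA05g34950D had 15, 19.2 and 10.9 FPKM in the Pic libraries, against 19.9, 18.5 and 19.6 FPKM in the control libraries, and at 48 h 23, 22.5 and 26.6 FPKM in the Pic libraries, against 11.9, 6.73 and 10.3 FPKM in the control libraries. BnaC01g09830D, annotated as an auxin-responsive protein of the Aux/IAA list, differed from the control by 0.03 at 96 h (adjusted p = 0.93) and by 1.50 at 48 h (adjusted p = 1.5e-05), a change of -1.48 ± 0.32 (adjusted p = 0.0013). At 96 h, BnaC01g09830D had 6.04, 10.6 and 7.28 FPKM in the Pic libraries, against 7.11, 6.79 and 9.13 FPKM in the control libraries, and at 48 h 12.9, 15.3 and 15.1 FPKM in the Pic libraries, against 5.4, 2.6 and 5.96 FPKM in the control libraries. Its groups overlapped at 96 h and were apart at 48 h.

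A microRNA precursor returned in part. The gene ENSRNA049463346 is annotated as a member of the mir-393 family, which in Arabidopsis lowers the transcripts of the TIR1/AFB auxin receptors. At 96 h, it had 1.09, 2.3 and 5.36 FPKM in the Pic libraries, against 0 FPKM in all 3 control libraries, and at 48 h 12.8, 5.85 and 18.1 FPKM in the Pic libraries, against 0 FPKM in all 3 control libraries. No control library held a read of it at either time, and the Pic libraries together held 22 reads at 96 h and 90 at 48 h. Against a floor of 3 reads over the control group, it was at least 5.82-fold higher in Pic leaves at 96 h and at least 25.7-fold higher at 48 h. The response changed by -1.78 ± 0.51 (log2, SE), with adjusted p = 0.011, but the call was lost with a pseudocount of 0.1 and with voom. The reads were counted over a precursor, so mature miRNA was not measured.

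Among the genes named by rank that were downregulated at 48 h, the largest change was that of BnaA07g12540D, a glucose-6-phosphate 1-epimerase on chromosome A07 (scaffold LK032618, 149115 to 150865, minus strand), which interconverts the anomers of glucose 6-phosphate. At 96 h, BnaA07g12540D had 133, 158 and 127 FPKM in the Pic libraries, against 252, 248 and 249 FPKM in the control libraries, and at 48 h 0.917, 1.5 and 1.3 FPKM in the Pic libraries, against 99.5, 77.4 and 90.5 FPKM in the control libraries. The 48 h Pic libraries were close to 0 and the 96 h Pic libraries were above the 48 h controls, yet below the 96 h controls. The response changed by 4.49 ± 0.20 (log2, SE), with adjusted p = 1.8e-14, and the difference was -0.84 at 96 h and -5.33 at 48 h. The control leaves also rose, by 1.48, so the return was partial against a moving control. At 2 h the gene had 134, 139 and 123 FPKM in the Pic libraries, against 48.3, 55.3 and 51.5 FPKM in the control libraries.

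Both pathogenesis-related genes of the PR-1 family that the rule named had been downregulated at 48 h and returned in part. PR-1 proteins are secreted, and their transcripts are a common marker of the salicylic acid response. At 96 h, BnaA03g38630D had 102, 119 and 100.2 FPKM in the Pic libraries, against 123, 135 and 144 FPKM in the control libraries, and at 48 h 15.3, 15.8 and 15 FPKM in the Pic libraries, against 309, 313 and 296 FPKM in the control libraries. At 96 h, BnaC03g45470D had 87.9, 102 and 92.4 FPKM in the Pic libraries, against 278, 264 and 313 FPKM in the control libraries, and at 48 h 14.3, 20.5 and 17.3 FPKM in the Pic libraries, against 335, 275 and 300.4 FPKM in the control libraries. The 48 h Pic libraries were the lowest of the 4 groups in both genes. BnaA03g38630D changed by 3.91 ± 0.11 (adjusted p = 1.6e-18), and its control leaves fell by 1.19, so that its difference at 96 h was -0.32. BnaC03g45470D changed by 2.47 ± 0.16 (adjusted p = 2.1e-11) with control leaves that moved by -0.09 (adjusted p = 0.59), and its difference at 96 h was still -1.59. At 2 h, when 10.7% of tested genes were upregulated and 9.37% downregulated, both genes had been upregulated, by 2.31 and 2.14 (adjusted p = 1.4e-16 and 5.1e-13).

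**Figure D3:**
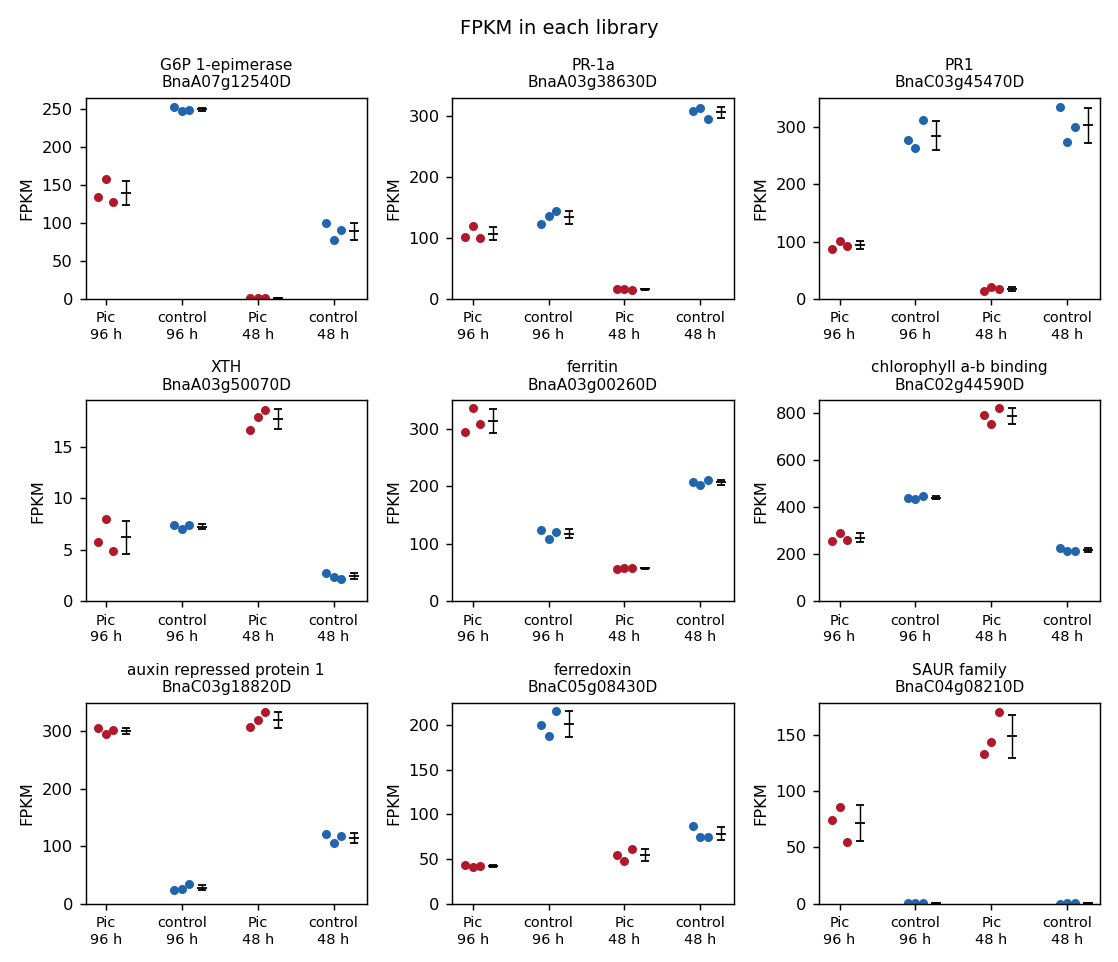
FPKM of 9 named genes in each of the 12 libraries (points; vertical axes start at 0), with the mean and SD of 3 libraries beside each group (black). Pic libraries of 96 h lie between those of 48 h and the control in PR1, with 87.9, 102 and 92.4 FPKM, and above every other group in ferritin.

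BnaC03g71650D encodes a CASP-like protein, a relative of the membrane proteins that organise the Casparian strip. At 96 h, BnaC03g71650D had 11.6, 12.7 and 11.2 FPKM in the Pic libraries, against 11.5, 10.6 and 7.64 FPKM in the control libraries, and at 48 h 0 FPKM in all 3 Pic libraries, against 17.8, 14.8 and 14.6 FPKM in the control libraries. The gene was thus listed at 0 in the Pic group of 48 h alone, at least 189-fold lower than the control when 3 reads over the group are taken as the floor, and the groups of 96 h differed by 0.25 (adjusted p = 0.3). Its change was 4.31 ± 0.27 (adjusted p = 1.9e-11). A histone H2B gene, BnaA07g37600D, had 4.6, 2.82 and 2.75 FPKM in the Pic libraries, against 2.16, 2.49 and 2.19 FPKM in the control libraries at 96 h, and 0.279, 0.585 and 1.58 FPKM, against 6.17, 7.7 and 4.15 FPKM at 48 h. Pic leaves rose by 1.31 and control leaves fell by 1.06, a change of 2.38 ± 0.36 (adjusted p = 2.2e-05). BnaC02g42930D, annotated as a peroxidase, returned as the control leaves fell. At 96 h, BnaC02g42930D had 0.214, 0.113 and 0.242 FPKM in the Pic libraries, against 1.05, 1.04 and 0.997 FPKM in the control libraries, and at 48 h 0, 0.123 and 0 FPKM in the Pic libraries, against 4.9, 7.63 and 4.82 FPKM in the control libraries. The Pic libraries held 10 reads in all at 96 h and 2 at 48 h, and moved by 0.19 (adjusted p = 0.62), while the control leaves moved by -1.71 (adjusted p = 6.7e-06). The change was 1.91 ± 0.34 (adjusted p = 0.00014).

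In the reversed genes, Pic leaves passed the control on the other side. BnaA03g00260D, a ferritin, which stores iron in plastids, was downregulated at 48 h and upregulated at 96 h. At 96 h, BnaA03g00260D had 295, 336 and 309 FPKM in the Pic libraries, against 124, 109 and 121 FPKM in the control libraries, and at 48 h 57.1, 57.6 and 57.2 FPKM in the Pic libraries, against 207, 202 and 212 FPKM in the control libraries. No 2 of the 4 groups overlapped. The response changed by 3.24 ± 0.10 (log2, SE), with adjusted p = 9.2e-18; Pic leaves rose by 2.43 and control leaves fell by 0.81. Chlorophyll a-b binding proteins, which hold the antenna pigments of the photosystems, gave examples in the other direction. At 96 h, BnaC02g44590D had 258, 291 and 261 FPKM in the Pic libraries, against 439.7, 433 and 448 FPKM in the control libraries, and at 48 h 793, 752 and 820.2 FPKM in the Pic libraries, against 225, 212 and 215 FPKM in the control libraries. BnaC02g44590D changed by -2.56 ± 0.10 (adjusted p = 1.1e-15), and Pic leaves fell by 1.54 while control leaves rose by 1.01. BnaA02g09700D, of the same family, lay lower. At 96 h, BnaA02g09700D had 3.57, 3.46 and 2.25 FPKM in the Pic libraries, against 8.2, 8.1 and 8.83 FPKM in the control libraries, and at 48 h 11.1, 13.4 and 10.4 FPKM in the Pic libraries, against 3.04, 1.88 and 2.74 FPKM in the control libraries. It changed by -3.05 ± 0.30 (adjusted p = 4.8e-08).

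BnaC09g21610D encodes the acetyltransferase component of pyruvate dehydrogenase, which feeds acetyl-CoA into respiration or fatty acid synthesis. At 96 h, BnaC09g21610D had 9.62, 11.2 and 9.89 FPKM in the Pic libraries, against 30.4, 24.8 and 25.5 FPKM in the control libraries, and at 48 h 24.1, 24 and 25.8 FPKM in the Pic libraries, against 8.26, 8.35 and 8.03 FPKM in the control libraries. The 48 h control and the 96 h Pic libraries were the low groups, and the change was -2.79 ± 0.16 (adjusted p = 2.2e-12). BnaA09g54870D, a glycine-rich protein, was the most abundant of the genes named by rank in this class. At 96 h, BnaA09g54870D had 1213, 1405 and 1100.2 FPKM in the Pic libraries, against 201, 209.7 and 265 FPKM in the control libraries, and at 48 h 235, 238 and 298 FPKM in the Pic libraries, against 379.8, 307 and 308 FPKM in the control libraries. Its difference was 2.46 at 96 h and -0.37 at 48 h, a change of 2.83 ± 0.15 (adjusted p = 7.8e-13). At 2 h its Pic libraries had 0, 0 and 0.068 FPKM, against 289, 319 and 333 FPKM in the control libraries. BnaC02g01730D, the S4 protein of the small ribosomal subunit, changed by 2.71 ± 0.19 (adjusted p = 1.8e-10), almost wholly in the Pic leaves (2.45, against -0.26 in the control leaves). At 96 h, BnaC02g01730D had 20.6, 17.9 and 17.8 FPKM in the Pic libraries, against 13.5, 14.3 and 13 FPKM in the control libraries, and at 48 h 2.48, 3.19 and 2.23 FPKM in the Pic libraries, against 17.4, 16.4 and 15.4 FPKM in the control libraries. It lies at one end of chromosome C02, in a stretch of 100 neighbouring genes whose median change was 0.42. An entry annotated as a signal recognition particle RNA, ENSRNA049452818, had 8.65, 4.36 and 1.96 FPKM in the Pic libraries, against 11.7, 17.7 and 25.5 FPKM in the control libraries at 96 h, and 7.18, 8.91 and 15.4 FPKM, against 4.96, 1.89 and 4.75 FPKM at 48 h, with a change of -3.03 ± 0.58 (adjusted p = 0.00033); entries of this RNA family are near-identical copies, so its level is uncertain.

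Where the response grew or emerged, the control leaves had often moved. BnaC03g18820D, annotated as auxin repressed protein 1, was the most abundant named gene whose upregulation grew. At 96 h, BnaC03g18820D had 305, 295 and 302 FPKM in the Pic libraries, against 24.5, 26 and 33.5 FPKM in the control libraries, and at 48 h 306, 319 and 333 FPKM in the Pic libraries, against 121, 105 and 118 FPKM in the control libraries. The Pic libraries of 96 h lay just below those of 48 h, and the control libraries of 96 h were the lowest group. The response changed by 1.92 ± 0.13 (log2, SE), with adjusted p = 8.3e-11; control leaves fell by 2.01 and Pic leaves moved by -0.09 (adjusted p = 0.56). BnaC05g48670D, a starch synthase, and BnaC03g69200D, a signal peptidase I, which removes signal sequences from imported or secreted proteins, emerged with control libraries of 96 h at or near 0. At 96 h, BnaC05g48670D had 6.89, 8.02 and 7.41 FPKM in the Pic libraries, against 0, 0 and 0.0601 FPKM in the control libraries, and at 48 h 5.88, 6.59 and 6.22 FPKM in the Pic libraries, against 6.09, 7.79 and 6.11 FPKM in the control libraries. At 96 h, BnaC03g69200D had 2.7, 3.09 and 1.98 FPKM in the Pic libraries, against 0 FPKM in all 3 control libraries, and at 48 h 5.12, 3.82 and 5.81 FPKM in the Pic libraries, against 7.57, 5.44 and 6.54 FPKM in the control libraries. The 96 h control group held 2 reads of the starch synthase in all and none of the signal peptidase, which was at least 23.7-fold higher in Pic leaves by the floor of 3 reads. The changes were 3.12 ± 0.19 (adjusted p = 9.6e-12) and 2.18 ± 0.27 (adjusted p = 1.6e-06), and the starch synthase lies in a stretch of chromosome C05 with a median change of 0.37. The small nucleolar RNA entry ENSRNA049477589 had 13.8, 11 and 12.5 FPKM in the Pic libraries, against 6.2, 3.58 and 2.37 FPKM in the control libraries at 96 h, on 64 and 16 reads. Its change of 2.38 ± 0.79 (adjusted p = 0.027) lost the threshold without any of 6 single libraries.

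Among the genes named by rank, the largest changes in downregulation that grew were those of a pair of non-specific lipid-transfer proteins, small secreted proteins that bind cuticular and membrane lipids. At 96 h, BnaA02g07120D had 2.28, 1.96 and 1.87 FPKM in the Pic libraries, against 50.6, 50.5 and 55.3 FPKM in the control libraries, and at 48 h 6.03, 6.47 and 7.76 FPKM in the Pic libraries, against 13.7, 8.31 and 8.95 FPKM in the control libraries. At 96 h, BnaA03g13140D had 0.706, 0.667 and 0.399 FPKM in the Pic libraries, against 14.8, 16.8 and 17.8 FPKM in the control libraries, and at 48 h 1.85, 0.646 and 1.27 FPKM in the Pic libraries, against 2.49, 1.83 and 2.02 FPKM in the control libraries. Control leaves rose by 2.26 in BnaA02g07120D and by 2.49 in BnaA03g13140D, and the 96 h control libraries stood above all others. The changes were -3.61 ± 0.26 (adjusted p = 2.8e-10) and -2.96 ± 0.26 (adjusted p = 7.2e-09). BnaA08g05660D, a beta-amylase, which releases maltose from starch, emerged. At 96 h, BnaA08g05660D had 0.0853, 0.0299 and 0.0643 FPKM in the Pic libraries, against 6.11, 6.79 and 8.91 FPKM in the control libraries, and at 48 h 0.155, 0.13 and 0.16 FPKM in the Pic libraries, against 0.26, 0.35 and 0.142 FPKM in the control libraries. The gene was near 0 except in the 96 h control libraries, which rose by 2.71, and its change was -2.83 ± 0.19 (adjusted p = 4.3e-11). The signal recognition particle RNA entry ENSRNA049475614 had a change of -2.65 ± 0.40 (adjusted p = 2e-05) on 13 Pic and 118 control reads at 96 h.

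Genes were then grouped by words in their description or protein domain, and each list is read against all tested genes, of which 12.5% moved up and 15.6% moved down. With equal totals, 8441 of the 46395 tested genes moved up and 4304 moved down. List counts with equal totals are read against these. Pic minus control over all tested genes had, with equal totals, a median of 0.28 at 96 h and 0.14 at 48 h. List medians with equal totals are read against those. With the deposited scaling, 22.2% of all tested genes were upregulated and 26.4% downregulated at 96 h. At 48 h these shares were 13.9% and 17.9%, and list counts at each time are read beside them. Of the Aux/IAA list, 3 moved up and 18 moved down of 62 tested (5 up and 9 down with equal totals), and the median difference was 0.56 at 96 h and 0.88 at 48 h. Pic leaves differed from control leaves in 40 up and 3 down at 96 h and in 44 up and 0 down at 48 h. The median change was -0.31, and -0.11 with equal totals. The list median thus moved toward the control, and 15 members were returning genes, beside 44 upregulated at 48 h. This is near the 34.5% that returned over all genes upregulated at 48 h, so the count does not set the list apart. Library medians of the list, relative to the mean of the 12 libraries, were 0.23 to 0.34 in Pic and -0.43 to -0.39 in control libraries at 96 h, and 0.46 to 0.55 in Pic and -0.47 to -0.31 in control libraries at 48 h. The Pic libraries of 96 h lay below those of 48 h without overlap, and both lay above every control library. The member with the smallest p moved against the list. At 96 h, BnaA08g27770D had 59.7, 62.2 and 61.3 FPKM in the Pic libraries, against 25.1, 23.8 and 26.7 FPKM in the control libraries, and at 48 h 46.5, 48.6 and 54.7 FPKM in the Pic libraries, against 53.5, 42.5 and 53.6 FPKM in the control libraries. BnaA08g27770D changed by 1.24 ± 0.16 (adjusted p = 3.4e-06), and the control leaves fell by 0.95.

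Of the SAUR list, 13 moved up and 17 moved down of 104 tested (13 up and 9 down with equal totals), with 42 up and 31 down at 96 h and 42 up and 18 down at 48 h, and the median change was -0.19 (0.01 with equal totals). BnaC04g08210D, a SAUR gene on chromosome C04, returned in part from a large difference. At 96 h, BnaC04g08210D had 74.1, 86.2 and 55.1 FPKM in the Pic libraries, against 0.984, 1.09 and 1.0 FPKM in the control libraries, and at 48 h 133, 144 and 169.8 FPKM in the Pic libraries, against 0.183, 0.958 and 0.349 FPKM in the control libraries. It changed by -1.53 ± 0.25 (adjusted p = 6.2e-05), and its difference was still 5.14 at 96 h. Of auxin response factors, 8 moved up and 2 moved down of 34 tested, which is 23.5% up, against 12.5% over all tested genes. With equal totals 8 moved up and 0 down, nearer the share of all tested genes, of which 8441 of 46395 moved up. No auxin response factor was downregulated at either time, and the median difference was 0.52 at 96 h and 0.38 at 48 h. BnaCnng54100D, the member with the smallest p, changed by 0.73 ± 0.15 (adjusted p = 0.00073). At 96 h, BnaCnng54100D had 14.4, 12.7 and 15.2 FPKM in the Pic libraries, against 7.08, 7.54 and 6.28 FPKM in the control libraries, and at 48 h 10.3, 12.3 and 9.97 FPKM in the Pic libraries, against 9.31, 9.26 and 9.57 FPKM in the control libraries. Its Pic and control libraries were apart at both times. Auxin efflux carriers, the membrane proteins that export auxin from cells, numbered 10 tested genes, of which 9 were upregulated at 96 h and 8 at 48 h. Their median difference was 1.74 at 96 h and 1.21 at 48 h, and 2 passed the test of the change. BnaC06g24400D had 37.2, 32.4 and 44.2 FPKM in the Pic libraries, against 6.78, 5.97 and 7.71 FPKM in the control libraries at 96 h, and 30.2, 25.7 and 24.8 FPKM, against 7.87, 13.5 and 10.2 FPKM at 48 h, a change of 1.01 ± 0.21 (adjusted p = 0.00093). It lies on chromosome C06 in a stretch with a median change of 0.69, and the part of that stretch in its change was not tested. The search of descriptions and domains matched no gene as GH3 or TIR1/AFB, expressed or not. These families were therefore not assessed, and nothing is said of their expression.

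**Figure D4:**
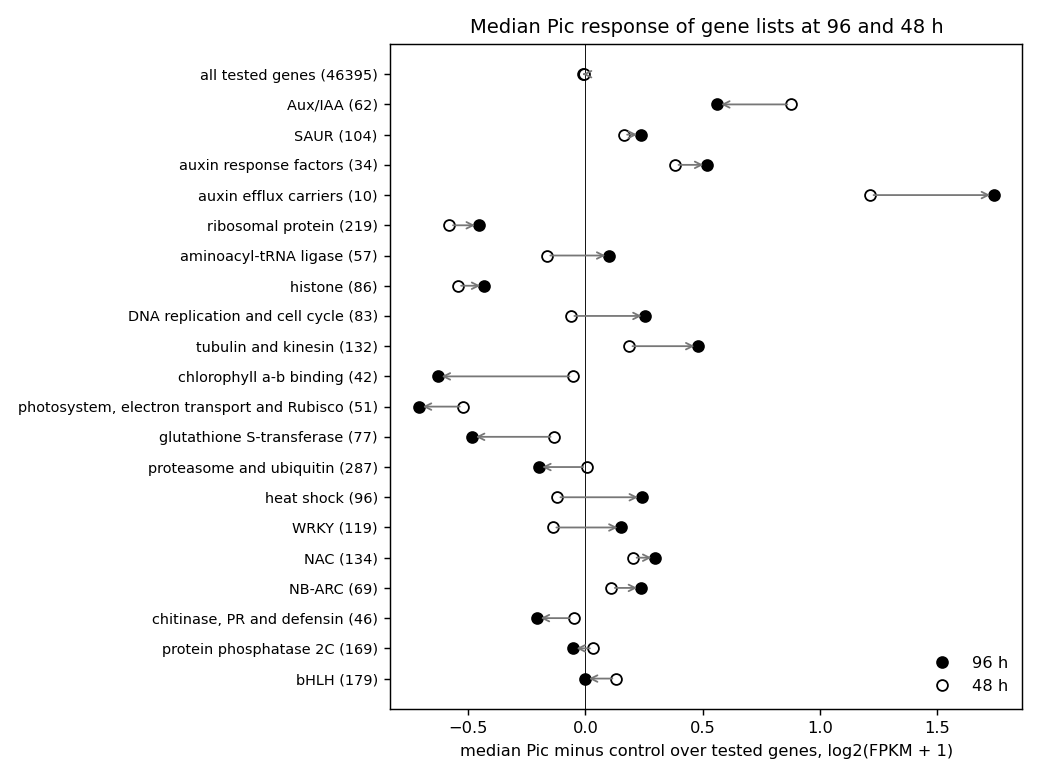
Median Pic minus control difference (horizontal axis, log2(FPKM + 1)) of 20 gene lists and of all tested genes at 96 h (filled) and 48 h (open), with the number of tested genes in parentheses; arrows point toward 96 h. Aux/IAA genes moved toward 0 (median 0.56 at 96 h and 0.88 at 48 h) and auxin efflux carriers away from it (1.74 and 1.21).

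Lists of other hormones were small. Of the abscisic acid list, most of whose members carry the RPE65 domain of carotenoid cleavage dioxygenases, 0 moved up and 4 moved down of 16 tested (0 up and 3 down with equal totals), and 6 were upregulated at 96 h against 10 at 48 h. The RPE65 domain does not tell which of these members act in abscisic acid synthesis. BnaC01g11550D, of that domain, was the member with the smallest p. At 96 h, BnaC01g11550D had 213, 203 and 224 FPKM in the Pic libraries, against 353, 371 and 365 FPKM in the control libraries, and at 48 h 330.3, 307 and 322 FPKM in the Pic libraries, against 262, 375 and 301 FPKM in the control libraries. Its groups overlapped at 48 h and were apart at 96 h, with a change of -0.81 ± 0.14 (adjusted p = 7.9e-05). In the jasmonate list, 5 moved up and 10 moved down of 55 tested (6 up and 7 down with equal totals). The lipoxygenase BnaC06g18870D, of the enzyme family that starts jasmonate synthesis, reversed. At 96 h, BnaC06g18870D had 115, 96.4 and 129 FPKM in the Pic libraries, against 208, 217 and 207 FPKM in the control libraries, and at 48 h 280.2, 264 and 236 FPKM in the Pic libraries, against 66.6, 125 and 86.7 FPKM in the control libraries. It changed by -2.41 ± 0.24 (adjusted p = 5.8e-08) and lies in a stretch of chromosome C06 with a median change of -0.35. Ethylene synthesis gave no called change in 5 tested genes with the deposited scaling and 3 positive ones with equal totals. Of ethylene receptors and response genes, 2 moved up and 3 moved down of 17 tested (3 up and 0 down with equal totals), and the receptor BnaCnng17850D changed by 0.95 ± 0.18 (adjusted p = 0.00041), with 3.8, 3.4 and 4.4 FPKM in the Pic libraries, against 2.43, 2.73 and 2.5 FPKM in the control libraries at 96 h, and 1.58, 1.2 and 1.99 FPKM, against 2.38, 2.88 and 2.67 FPKM at 48 h. BnaA07g37740D, a phosphoribohydrolase that releases active cytokinin, returned to the control. At 96 h, BnaA07g37740D had 0.733, 1.23 and 1.41 FPKM in the Pic libraries, against 0.824, 0.571 and 0.734 FPKM in the control libraries, and at 48 h 2.32, 1.59 and 2.06 FPKM in the Pic libraries, against 0.0956, 0.10 and 0.183 FPKM in the control libraries. The change was -1.10 ± 0.25 (adjusted p = 0.0018). Of 16 flavin monooxygenases, a family that includes the YUCCA enzymes of auxin synthesis, 1 moved up and 4 moved down, with the smallest p in BnaC09g13330D with -0.98 ± 0.17 (adjusted p = 0.0001).

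Among transcripts for protein synthesis, most called changes were positive. Of ribosomal protein genes, 65 moved up and 17 moved down of 219 tested (94 up and 13 down with equal totals), which is 29.7% and 7.76%. Returning genes numbered 62, and over all genes called at 48 h 33.8% returned. Of the list, 125 were downregulated at 96 h and 155 at 48 h. The median difference was -0.46 at 96 h and -0.58 at 48 h (-0.01 and -0.36 with equal totals). Over all tested genes the medians with equal totals were 0.28 and 0.14, so the list stayed below them at both times. Both leaves moved, the Pic leaves by a median of 0.52 and the control leaves by 0.29. The median change was 0.16 and 0.38 with equal totals. Library medians were -0.08 to 0.09 in Pic and 0.38 to 0.53 in control libraries at 96 h, and -0.57 to -0.40 in Pic and 0.03 to 0.22 in control libraries at 48 h. The 48 h Pic libraries were the low group. BnaA06g28610D, of the S21e family of the small subunit, returned in part from near 0. At 96 h, BnaA06g28610D had 4.71, 5.51 and 4.43 FPKM in the Pic libraries, against 25.3, 25.8 and 29.6 FPKM in the control libraries, and at 48 h 0.726, 0.228 and 0.299 FPKM in the Pic libraries, against 58.6, 47.6 and 50.6 FPKM in the control libraries. It changed by 3.00 ± 0.20 (adjusted p = 3.6e-11). Aminoacyl-tRNA ligases, which charge tRNAs with amino acids, moved mostly up, as 22 moved up and 3 moved down of 57 tested (28 up and 1 down with equal totals). Their median difference was 0.10 at 96 h and -0.17 at 48 h, and 0.46 and 0.01 with equal totals. BnaC05g19840D, of this list, changed by 0.79 ± 0.11 (adjusted p = 1.1e-05), with control leaves that fell by 0.61.

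Of histone genes, 46 were downregulated at 96 h and 48 at 48 h, with a median difference of -0.43 and -0.55 (0.01 and -0.34 with equal totals). With equal totals the medians over all tested genes were 0.28 and 0.14, above those of the list. Of the list, 14 moved up and 9 moved down of 86 tested (27 up and 6 down with equal totals). A histone H3 gene, BnaC06g22280D, moved further down. At 96 h, BnaC06g22280D had 30.5, 28.8 and 28.5 FPKM in the Pic libraries, against 77.8, 86.6 and 94.8 FPKM in the control libraries, and at 48 h 67.6, 64.4 and 66.7 FPKM in the Pic libraries, against 73.1, 87.2 and 76.3 FPKM in the control libraries. It changed by -1.28 ± 0.12 (adjusted p = 1.6e-08), in the Pic leaves (-1.15), against 0.13 in the control leaves. Of 83 tested DNA replication and cell cycle genes, 28 were upregulated and 18 downregulated at 96 h, and 6 and 8 at 48 h. Over all tested genes these shares were 22.2% and 26.4% at 96 h, and 13.9% and 17.9% at 48 h. Of the list, 21 moved up and 11 moved down (23 up and 4 down with equal totals). BnaA10g27860D, a fragment of an MCM helicase, which unwinds DNA at replication origins, emerged. At 96 h, BnaA10g27860D had 1.85, 2.79 and 2.16 FPKM in the Pic libraries, against 0.527, 0.325 and 0.626 FPKM in the control libraries, and at 48 h 0.752, 1.04 and 0.739 FPKM in the Pic libraries, against 0.979, 0.813 and 1.48 FPKM in the control libraries. It changed by 1.30 ± 0.20 (adjusted p = 2.4e-05). Tubulin and kinesin genes, which form and use the microtubules of the dividing and elongating cell, were upregulated in 82 at 96 h and 31 at 48 h, and 25 moved up and 9 moved down of 132 tested (45 up and 4 down with equal totals). The alpha-tubulin BnaC03g68420D, the member with the smallest p, went against its list with a change of -0.71 ± 0.11 (adjusted p = 4.4e-05).

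**Figure D5:**
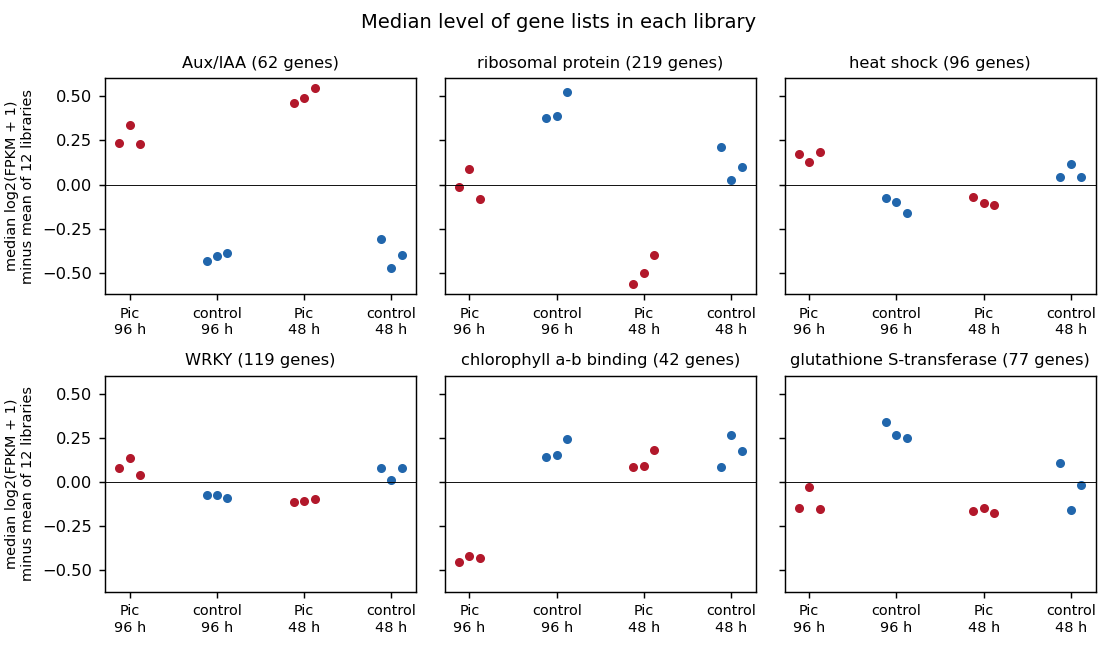
Median over each list's genes of log2(FPKM + 1) minus the gene's mean over the 12 libraries (vertical axis), 1 point a library. Chlorophyll a-b binding genes were low in the 3 Pic libraries of 96 h (-0.45 to -0.42), and ribosomal protein genes in the 3 Pic libraries of 48 h.

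Among photosynthesis genes, most called changes were negative. Of chlorophyll a-b binding genes, 2 moved up and 26 moved down of 42 tested (5 up and 18 down with equal totals), which is 61.9% down, and 24 were growing or emerging genes. 35 were downregulated at 96 h and 14 at 48 h, and the median difference was -0.63 at 96 h and -0.05 at 48 h. The median moved by -0.52 in Pic leaves and by -0.06 in control leaves. With equal totals the median change was -0.28, and the median difference was -0.16 at 96 h and 0.16 at 48 h. Of photosystem, electron transport and Rubisco genes, 5 moved up and 24 moved down of 51 tested (9 up and 14 down with equal totals), and the median difference was -0.71 at 96 h and -0.52 at 48 h. With the deposited scaling the median change was -0.28, and here the control leaves moved by a median of 0.23 and the Pic leaves by -0.12. With equal totals the median change was -0.04. BnaC05g08430D, a ferredoxin, which carries electrons from photosystem I, belonged to the growing class and was the member of its list with the smallest p. At 96 h, BnaC05g08430D had 43.7, 41.6 and 42.2 FPKM in the Pic libraries, against 199.6, 187 and 216 FPKM in the control libraries, and at 48 h 54.6, 47.6 and 61.4 FPKM in the Pic libraries, against 86.5, 74.2 and 74.6 FPKM in the control libraries. It changed by -1.69 ± 0.14 (adjusted p = 3.6e-09), mostly in the control leaves (1.35). Of tetrapyrrole genes, 2 moved up and 2 moved down of 15 tested (6 up and 0 down with equal totals). BnaC09g15440D, a glutamyl-tRNA reductase, the first committed enzyme of chlorophyll synthesis, changed by 0.70 ± 0.12 (adjusted p = 0.00013), as control leaves fell by 0.70 and Pic leaves moved by less than their error (-0.0003 ± 0.09).

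In carbon and nitrogen metabolism the counts were small. Of starch and sucrose genes, 5 moved up and 8 moved down of 29 tested (6 up and 5 down with equal totals). Of glycolysis genes, 13 moved up and 6 moved down of 61 tested (25 up and 3 down with equal totals). An aldolase fragment, BnaAnng40850D, reversed with a change of 1.03 ± 0.14 (adjusted p = 4.5e-06). At 96 h, BnaAnng40850D had 300.2, 274 and 307 FPKM in the Pic libraries, against 197, 199 and 194 FPKM in the control libraries, and at 48 h 211, 197 and 211 FPKM in the Pic libraries, against 234, 347 and 280.2 FPKM in the control libraries. Its Pic libraries were the high group at 96 h and the low group at 48 h. BnaA04g08160D, a glutamine synthetase, which assimilates ammonium, returned in part. At 96 h, BnaA04g08160D had 57.4, 59.9 and 55.4 FPKM in the Pic libraries, against 46.4, 52.9 and 52.4 FPKM in the control libraries, and at 48 h 70.5, 71.4 and 68.7 FPKM in the Pic libraries, against 29.6, 26.7 and 28.8 FPKM in the control libraries. It changed by -1.09 ± 0.11 (adjusted p = 3.1e-08), chiefly through a rise of 0.81 in the control leaves.

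In the heat shock and WRKY lists, most called changes were positive. Of heat shock genes (chaperones and their transcription factors), 42 moved up and 9 moved down of 96 tested (49 up and 6 down with equal totals), which is 43.8% up. Pic leaves differed from control leaves in 42 up and 10 down at 96 h and 2 up and 25 down at 48 h, and the median difference was 0.24 at 96 h and -0.12 at 48 h (0.56 and 0.03 with equal totals). BnaCnng03470D, of the HSP70 chaperone domain, reversed. At 96 h, BnaCnng03470D had 391, 333 and 428 FPKM in the Pic libraries, against 105, 112 and 111 FPKM in the control libraries, and at 48 h 179, 158 and 169.8 FPKM in the Pic libraries, against 290.2, 455 and 349 FPKM in the control libraries. Control libraries were the high group at 48 h and the low group at 96 h, and the change was 2.88 ± 0.17 (adjusted p = 4.7e-12). Library medians of the list were 0.13 to 0.19 in Pic and -0.16 to -0.08 in control libraries at 96 h, and -0.12 to -0.07 in Pic and 0.04 to 0.11 in control libraries at 48 h. They did not overlap at either time.

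Of WRKY transcription factors, which act in defence and senescence, 26 moved up and 4 moved down of 119 tested (37 up and 1 down with equal totals), with 33 up and 13 down at 96 h and 7 up and 21 down at 48 h. The median difference was 0.15 at 96 h and -0.14 at 48 h, and the median change 0.30 (0.42 with equal totals). BnaA04g02560D, of the WRKY domain, was the member with the smallest p. At 96 h, BnaA04g02560D had 4.25, 4.52 and 3.68 FPKM in the Pic libraries, against 2.51, 1.43 and 0.976 FPKM in the control libraries, and at 48 h 0.574, 0.721 and 0.414 FPKM in the Pic libraries, against 8.15, 6.25 and 9.63 FPKM in the control libraries. It changed by 3.51 ± 0.23 (adjusted p = 5.2e-11), and Pic leaves rose by 1.72 while control leaves fell by 1.80. At 2 h it had been upregulated by 1.98 (adjusted p = 2.6e-09). NB-ARC genes, which encode intracellular immune receptors, moved up in 12 and down in 2 of 69, led by BnaA10g25550D with 1.71 ± 0.17 (adjusted p = 3.3e-08). The list of chitinases, pathogenesis-related proteins and defensins was mixed: 12 moved up and 7 moved down of 46 tested (14 up and 3 down with equal totals), and 18 were downregulated at 96 h against 12 at 48 h. NAC transcription factors moved up in 22 and down in 10 of 134. BnaC05g00370D, of this family, went down with a change of -1.40 ± 0.13 (adjusted p = 1.5e-08). At 96 h, BnaC05g00370D had 17.4, 16.7 and 16.3 FPKM in the Pic libraries, against 26, 28.8 and 31 FPKM in the control libraries, and at 48 h 23.7, 24.8 and 27.4 FPKM in the Pic libraries, against 14.1, 14.9 and 17.6 FPKM in the control libraries. Its high groups were Pic at 48 h and control at 96 h.

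Families that include detoxifying enzymes, some of which act on herbicides in other plants, moved in both directions. Of glutathione S-transferases, 12 moved up and 28 moved down of 77 tested (17 up and 25 down with equal totals), and 10 up and 43 down at 96 h stood beside 10 up and 28 down at 48 h. The median moved by 0.05 in Pic leaves and 0.26 in control leaves, and the median change was -0.28 (-0.06 with equal totals). BnaC02g24980D, of this family, had the largest change of all named genes. At 96 h, BnaC02g24980D had 0 FPKM in all 3 Pic libraries, against 124, 124 and 127 FPKM in the control libraries, and at 48 h 24.1, 20.8 and 26.2 FPKM in the Pic libraries, against 45.6, 34.1 and 43.2 FPKM in the control libraries. Its 96 h Pic libraries held no read, which is at least 2208-fold lower than the control by the floor of 3 reads, and the change was -6.21 ± 0.19 (adjusted p = 8.5e-18). UDP-glucosyltransferases conjugate small molecules with sugar, and of their genes 26 moved up and 25 moved down of 134 tested (31 up and 12 down with equal totals). BnaC07g05000D of this family reversed. At 96 h, BnaC07g05000D had 15.8, 16.3 and 14.3 FPKM in the Pic libraries, against 4.6, 3.73 and 4.64 FPKM in the control libraries, and at 48 h 2.78, 1.72 and 2.83 FPKM in the Pic libraries, against 5.07, 4.27 and 4.89 FPKM in the control libraries. The 96 h Pic libraries were the high group, and the change was 2.38 ± 0.20 (adjusted p = 2.8e-09). Of cytochrome P450 genes, 38 moved up and 59 moved down of 259 tested (49 up and 41 down with equal totals), and BnaC09g51620D reversed with 1.96 ± 0.13 (adjusted p = 4.3e-11).

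Proteasome and ubiquitin genes moved down in 67 and up in 20 of 287, with a median change of -0.17, against -0.02 over all tested genes. With equal totals 28 moved down and 32 up, and the median was 0.02, against 0.14 over all tested genes. The list median thus lay below that of all tested genes in both scalings, while its sign depended on the scaling. BnaC06g21170D, of the ubiquitin domain, had 3.63, 2.93 and 3.24 FPKM in the Pic libraries, against 10.9, 11.3 and 14.7 FPKM in the control libraries at 96 h, and 7.98, 7.87 and 10.2 FPKM, against 10.2, 6.76 and 8.95 FPKM at 48 h. It changed by -1.65 ± 0.20 (adjusted p = 1.2e-06), in a stretch of chromosome C06 with a median change of -0.38. In the cell wall lists, 21 moved up and 11 moved down of 72 tested (23 up and 7 down with equal totals) among pectin genes, and 9 moved up and 14 moved down of 65 tested (14 up and 11 down with equal totals) among xyloglucan and expansin genes. BnaA01g31480D, a pectinesterase, reversed, as control leaves fell by 2.06 and Pic leaves rose by 0.33. At 96 h, BnaA01g31480D had 16.8, 17.9 and 19.8 FPKM in the Pic libraries, against 4.23, 3.73 and 3.39 FPKM in the control libraries, and at 48 h 14.6, 13 and 15 FPKM in the Pic libraries, against 18.9, 17.6 and 20.4 FPKM in the control libraries. It changed by 2.40 ± 0.12 (adjusted p = 4.8e-13), in a stretch of chromosome A01 with a median change of 0.31. BnaC08g44140D, a peroxidase, had its highest values in the control libraries of 96 h. At 96 h, BnaC08g44140D had 2.54, 2.38 and 2.68 FPKM in the Pic libraries, against 14.3, 15.5 and 14.7 FPKM in the control libraries, and at 48 h 3.01, 2.78 and 2.79 FPKM in the Pic libraries, against 2.18, 1.33 and 1.55 FPKM in the control libraries. Control leaves rose by 2.57, Pic leaves moved by -0.13 (adjusted p = 0.55), and the change was -2.70 ± 0.19 (adjusted p = 1.5e-10).

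Other transcription factor families moved in both directions, from 2 up and 4 down of 40 homeobox genes to 50 up and 33 down of 298 MYB genes. BnaCnng39100D, a bHLH gene, returned in part. At 96 h, BnaCnng39100D had 3.57, 3.33 and 2.63 FPKM in the Pic libraries, against 0.0628, 0 and 0.383 FPKM in the control libraries, and at 48 h 9.08, 11 and 11.1 FPKM in the Pic libraries, against 0.117, 0.122 and 0.0557 FPKM in the control libraries. It changed by -1.50 ± 0.19 (adjusted p = 1.4e-06), a call that was lost with voom. BnaC06g30140D, an AP2 gene, had been near 0 at 48 h and returned to the control. At 96 h, BnaC06g30140D had 4.45, 6.23 and 3.73 FPKM in the Pic libraries, against 5.04, 3.97 and 4.04 FPKM in the control libraries, and at 48 h 0.314, 0.11 and 0.323 FPKM in the Pic libraries, against 4.62, 3.08 and 2.87 FPKM in the control libraries. It changed by 1.94 ± 0.23 (adjusted p = 9.6e-07) and lies on chromosome C06 in a stretch with a median change of 0.57. The homeobox gene BnaC05g48840D was near 0 in Pic leaves at 48 h and in control leaves at 96 h. At 96 h, BnaC05g48840D had 4.88, 3.51 and 6.5 FPKM in the Pic libraries, against 0, 0 and 0.0956 FPKM in the control libraries, and at 48 h 0, 0.0765 and 0 FPKM in the Pic libraries, against 3.66, 4.48 and 3.0 FPKM in the control libraries. These near-empty groups held 1 read each, the change was 4.69 ± 0.23 (adjusted p = 1.1e-13), and the surrounding stretch of chromosome C05 had a median change of 0.39. The MYB-domain gene BnaAnng06640D reversed with -2.16 ± 0.22 (adjusted p = 5.6e-08). In the clock and B-box list, 14 moved up and 15 moved down of 96 tested (19 up and 7 down with equal totals). BnaC07g29960D, the clock component APRR5, emerged at 96 h after an upregulation of 1.70 at 2 h. At 96 h, BnaC07g29960D had 10.5, 9.96 and 10.4 FPKM in the Pic libraries, against 3.34, 3.46 and 3.1 FPKM in the control libraries, and at 48 h 4.05, 4.45 and 4.38 FPKM in the Pic libraries, against 3.61, 3.79 and 3.84 FPKM in the control libraries. It changed by 1.24 ± 0.14 (adjusted p = 2.8e-07).

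Hal leaves gave a comparison in which the controls cancel: the change of Pic leaves between 48 and 96 h less that of Hal leaves. It passed the test in 10183 genes (21.9%). Of the 4992 returning genes, 2522 (50.5%) also moved differently from Hal leaves in the direction of the return, and of the 7604 growing or emerging genes 2000 (26.3%) did so in the direction of growth. Both tests share the Pic libraries, so these shares are descriptions. The epimerase BnaA07g12540D (4.06 ± 0.20, adjusted p = 2.4e-13) and ferritin (2.80 ± 0.10, adjusted p = 5.9e-16) differed from Hal leaves. The CASP-like BnaC03g71650D was not shown to differ (-0.08 ± 0.27, adjusted p = 0.88). Of 219 ribosomal protein genes, 85 moved up and 9 down relative to Hal leaves, and of 62 Aux/IAA genes 2 moved up and 17 down. Over all tested genes, 11.4% moved up and 10.6% down relative to Hal leaves. Hal leaves had received 0.5 µg halauxifen and Pic leaves 2.4 µg picloram, so compound and dose cannot be told apart.

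Part of the change followed position in the genome. In windows of 100 neighbouring tested genes, the median change ranged from -0.68 to 0.90, and 2956 of 41142 placed genes (7.18%), on 11 chromosomes, lay in windows with a median over 0.3 in size. In these windows 43.3% of genes were called, against 27.2% in the other windows. The windows were chosen by the same changes, so a higher share in them was given in advance and is a description. Counted by chromosome and direction, the largest set was 708 genes of C06 in windows with a positive median. It was not tested whether they form 1 stretch. Their median difference was 0.02 at 96 h and -0.51 at 48 h, and the Pic leaves moved by 0.69. In the 344 genes of A03 in windows with a positive median it was the control leaves that moved, by -0.56. Without the genes of these windows, 11768 genes changed, of which 4275 returned and 7067 grew or emerged. The shifted windows cannot be told apart from differences between the plants of each group. A gene with a mean of at least 5 FPKM in 1 group and at most 3 reads in all of another made up 77 of the called changes. In 32 of these the near-empty group was Pic at 96 h, in 30 control at 96 h, in 31 Pic at 48 h and in 18 control at 48 h, some genes counting more than once. Brassica napus carries near-identical A and C genome copies of most genes, and how reads shared by copies were assigned is not given in the sources used here, so values of single copies are uncertain.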

How the data were processed

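Leaf RNA was sequenced as mRNA libraries (27 libraries, 9 groups of 3). The authors deposited 1 table of FPKM values for 104573 genes; the submitters' processing notes name CASAVA, HISAT2, StringTie, DESeq2, edgeR and GATK. The genome build is not given in the sources used here, and coordinates are those of the deposited table on its scaffolds. All values came out as whole reads within 0.01 read once multiplied by gene length and a divisor that matched median-ratio size factors over 44248 genes. Such a divisor assumes that most genes keep their level, so equal read totals were tried as well. FPKM plus a pseudocount of 1 was log2-transformed and fitted with limma 3.58.1 (empirical Bayes with trend) over all 9 groups, with Benjamini-Hochberg adjustment over 46395 genes and a threshold of 0.05. Errors of changes are SE with 3 libraries a group, and p-values measure the spread between these libraries only. On simulated counts for 46395 genes with 200 changed by a fold of 4, 98% of raised and 100% of lowered genes were found and 13 others were called. The simulation gave all genes the same dispersion and no other difference between groups, and changed only well-expressed genes. It checks the working of the fit and gives no rate of false calls for these data. Figures were drawn with Python 3.11.15 and matplotlib 3.10.9.

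The gene lists came from words in the descriptions and domains (9547 genes have a description, 31283 a domain), and the spelling of domain words was adjusted to the table. The members, lists and windows were chosen with earlier results of these data known. Genes were named by rank of the change (6 returning, 3 reversed and 4 growing or emerging in each direction, at most 1 per 100 neighbouring genes) and as the member of each list with the smallest p if called. Of 54 lists, 49 had tested genes. Replicate numbers did not pair Pic with control libraries. Alternatives were a pseudocount of 0.1, no filter, a filter at 5 FPKM, equal totals, the compared libraries alone, a block, a log2 size of at least 1, voom and leaving out single libraries.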

Additional observations from a re-analysis of the deposited data

Results flagged for a closer look

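The Pic response differed between 96 and 48 h, by the test of that difference itself, in 13047 genes. Among the genes named by rank, the log2 change was positive, 4.49 for BnaA07g12540D, 4.31 for BnaC03g71650D, 3.91 for BnaA03g38630D, 2.47 for BnaC03g45470D, 2.38 for BnaA07g37600D, 1.91 for BnaC02g42930D, 3.24 for BnaA03g00260D, 2.83 for BnaA09g54870D, 2.71 for BnaC02g01730D, 3.12 for BnaC05g48670D, 2.38 for ENSRNA049477589, 2.18 for BnaC03g69200D and 1.92 for BnaC03g18820D. It was negative, -2.67 for BnaA03g50070D, -1.78 for ENSRNA049463346, -1.64 for BnaA05g34950D, -1.57 for BnaC01g27750D, -1.50 for BnaA07g38610D, -1.48 for BnaC01g09830D, -3.05 for BnaA02g09700D, -3.03 for ENSRNA049452818, -2.79 for BnaC09g21610D, -3.61 for BnaA02g07120D, -2.96 for BnaA03g13140D, -2.83 for BnaA08g05660D and -2.65 for ENSRNA049475614. Groups of 3 libraries were not examined for a library far from the others.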

How the results depend on the processing

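The count of 13047 changed genes was 12697 with a pseudocount of 0.1, 12742 without a filter, 9457 with the filter at 5 FPKM, 12745 with equal totals, 11311 with the compared libraries alone, 12221 with voom and 11055 to 13315 without single libraries. Leaving out single libraries gave 4202 to 4796 returning and 6225 to 7963 growing or emerging genes. With a replicate block the count of changes was 11889, and no count of calls moved by over 1.5 times; same-numbered libraries did not deviate together (correlations −0.11 to 0.02). A log2 size of at least 1 left 4602 changes, 5167 genes at 96 h, 2871 at 48 h, 1800 between times in Pic leaves, 2124 in control leaves, 3799 against Hal, 2305 returning and 2245 growing or emerging genes. By list it left 4 Aux/IAA, 2 chlorophyll a-b binding, 10 photosystem, 15 glutathione S-transferase and 15 proteasome genes down, and 14 ribosomal protein, 1 tRNA ligase, 21 heat shock, 14 WRKY and 8 cell cycle genes up; the added size is the cause. The filter at 5 FPKM gave 14081 genes at 96 h and 5 cell cycle genes up, on fewer tested genes, and the control libraries alone gave 8209 genes between times, on fewer libraries. Equal totals gave 9 Aux/IAA, 14 photosystem and 28 proteasome genes down; the cause was not tested. The alternative without shifted windows was chosen after seeing the data. No named gene changed direction. Apart from the size limit, calls were lost for mir-393 (adjusted p = 0.19 with a pseudocount of 0.1 and 0.27 with voom), for BnaCnng39100D (0.28 with voom), and for snoR1 (0.14 with a pseudocount of 0.1, 0.057 without a filter, and 0.053 to 0.07 without Pic 96 h library 1, control 96 h library 3, Pic 48 h library 2 or 3, or control 48 h library 1 or 3).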

Other observations

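The classes were also read at 2 h, when 10.7% of all tested genes were upregulated and 9.37% downregulated; the members were called at 48 or 96 h, so these shares are descriptions. Of 1461 genes that were downregulated at 48 h and back at 96 h, 17.3% were downregulated and 16.8% upregulated at 2 h. Of 1190 genes that were upregulated at 48 h and back at 96 h, 13.8% were upregulated and 10.8% downregulated at 2 h, near the shares of all genes. Among 934 reversed genes that were downregulated at 48 h, 28.1% had been upregulated and 14.3% downregulated at 2 h. Of 1105 growing downregulated genes, 29.4% were downregulated and 7.15% upregulated at 2 h. Of protein phosphatase 2C genes, a family that includes brakes of abscisic acid signalling, 14 moved up and 31 moved down of 169 tested (21 up and 15 down with equal totals), and the member with the smallest p, BnaCnng05920D, had 5.13, 5.18 and 4.69 FPKM in the Pic libraries, against 0.515, 0.146 and 0.605 FPKM in the control libraries at 96 h. Of response regulators, 11 moved up and 10 moved down of 73 tested (15 up and 6 down with equal totals), and BnaCnng03230D had 22.1, 20.5 and 20.5 FPKM in the Pic libraries, against 6.63, 5.94 and 6.82 FPKM in the control libraries at 96 h. In both genes the control leaves of 96 h were the low group (-2.01 and -1.38 between the times).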
